A study of Equus caballus with 19 samples.

Results

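The genes described here encode the subunits, regulators and base-assembly chaperones of the proteasome, including the inducible subunits of the immunoproteasome. They were chosen by name, as every row of both count tables whose gene name begins with PSMA, PSMB, PSMC, PSMD or PSME followed by a digit. This gave 44 members of 29196 genes in each table. Of these, 43 passed the filter on low values in each batch, together with 14719 genes tested in batch 1 and 16705 in batch 2. The member that did not pass, PSMB11, encodes a catalytic subunit known from the thymus, and its highest normalised count in any library was 1.07. The rule also took in PSMC3IP, which shares only the name and encodes a cofactor of meiotic recombination, and PSMA8, a testis subunit whose normalised counts did not exceed 32.9.

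The cells were adult wild type tenocytes, the resident fibroblasts of tendon, taken from the superficial digital flexor tendon of Thoroughbred horses and grown in 3D gels of bovine collagen for 14 days. Batch 1 held 5 lines, each with an unstimulated control library and a library stimulated with 1 nM IL-1β, an inflammatory cytokine. Batch 2 held 3 other lines, each with a control, a 1 nM IL-1β and a 1 nM IL-1β plus 100 ng/ml IL1Ra library, IL1Ra being the antagonist that occupies the IL-1 receptor. All 19 libraries were bulk mRNA-seq, with 1 library for each line and condition, so the lines (numbered 1 to 8) are the replicates and a difference between lines cannot be separated from a difference between single cultures. Batches are treated separately throughout, since their tables were normalised separately. Fewer cells of a type and less RNA per cell cannot be told apart in such data.

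The 20S core of the proteasome is a barrel of 4 rings, with alpha subunits (PSMA) in the outer rings and beta subunits (PSMB) in the inner rings. PSMB5, PSMB6 and PSMB7 carry the proteolytic sites. In cells exposed to interferon gamma, and constitutively in many immune cells, newly assembled cores incorporate PSMB8, PSMB9 and PSMB10 in their place and form the immunoproteasome, which produces peptides suited to presentation on MHC class I. The core is opened by the 19S particle, made of the PSMC ATPases and the PSMD subunits that recognise and deubiquitinate substrates, or by activators such as PA28 alpha-beta (PSME1 and PSME2, also interferon-inducible), PA28 gamma (PSME3) and PA200 (PSME4). Below, the 36 members that build the standard proteasome, its activators PSME3 and PSME4 and its chaperones are called constitutive. In the RefSeq gene table for the horse (assembly TB-T2T), PSMB8 and PSMB9 lie on either side of TAP1, 1 of the 2 genes of the peptide transporter of the MHC class I pathway, and PSME1 and PSME2 are separated by 1 protein-coding gene, EMC9.

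The normalised counts of a library summed to between 43390000 and 49200000 in batch 1 and between 24960000 and 34600000 in batch 2. The members took between 0.369% and 0.697% of a library. PTPRC, the pan-leukocyte marker, did not exceed 6.46 normalised counts in any library, and CD79A and AIF1 were at 0 in all 19. Of the 12 leukocyte markers, CD68 and ITGAX alone were above 0 in every library. Among tenocyte markers, TNMD did not exceed 1.00 in any library, so the label rests on the other markers. SCX and the collagens COL1A1 and COL1A2 were expressed in the controls. However, SCX was 4720 in the control of line 6 against 266 and 105 in the controls of lines 7 and 8. MKX was 4059 in the control of line 6, lower in line 7 and only 11.5 in line 8. The label of line 8 therefore does not rest on MKX.

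In batch 1, transcripts of the standard proteasome were higher with IL-1β by a small amount that varied little between lines. Of the 43 members tested, 17 rose and 1 fell at an adjusted p below 0.05 (limma, Benjamini-Hochberg over all genes tested), and all 18 were constitutive. Across all genes tested, 13.1% rose and 14.6% fell, so the members' count of rises (17 of 43) lay above that background and their count of falls below it. None of the 43 passed the study's additional requirement of a 2-fold change (a log2 fold change of at least 1), which 4.91% of genes passed upward and 7.9% downward. The median log2 fold change of the 36 constitutive members was 0.41, against -0.0034 for all genes tested, and 33 of the 36 had a positive value. Within the lines, the median log2 change of the constitutive members was 0.49 in line 1, 0.26 in line 2, 0.53 in line 3, 0.35 in line 4 and 0.41 in line 5. With the tenocyte line as a block, 34 members rose and 2 fell, against 20.9% and 22.4% of all genes, and 32 of the 34 were constitutive.

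**Figure D1:**
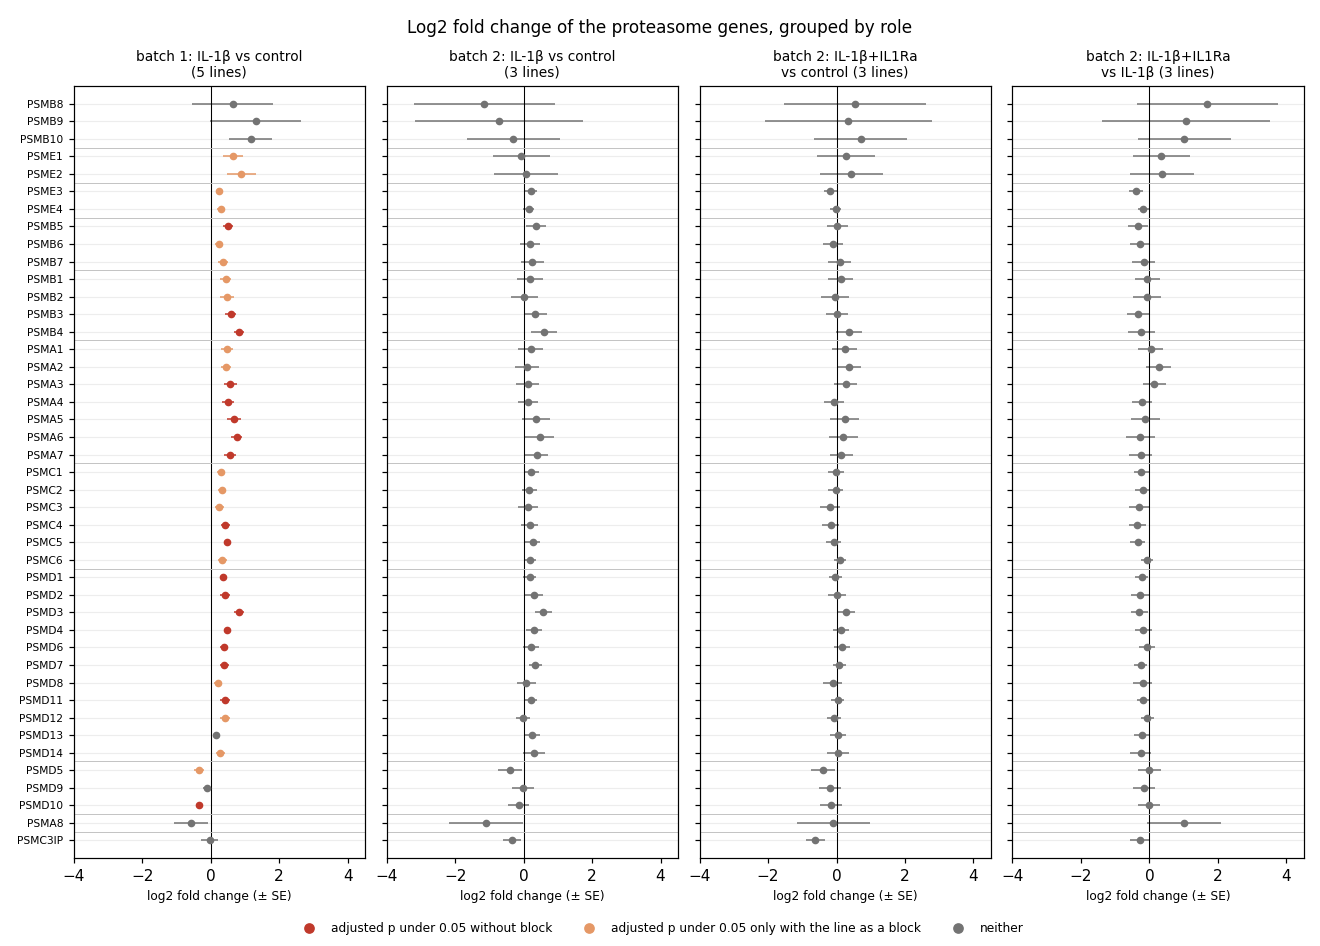
Log2 fold change of each of the 43 tested members (points, with standard errors as bars) in the 4 comparisons, with members grouped by role from the inducible subunits at the top. Dark red marks an adjusted p below 0.05 and orange an adjusted p below 0.05 only with the tenocyte line as a block. Batch 1 shows a column of small positive values from PSME3 to PSMD14 with narrow bars, the chaperones PSMD5, PSMD9 and PSMD10 to the left of 0, and wide bars for PSMB8 to PSMB10.

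The alpha ring, which forms the gated ends of the core, was higher with IL-1β for all 7 subunits in all 5 lines of batch 1, and 5 of the 7 rose. The share of all genes higher in all 5 lines was not taken. PSMA6 rose the most, with normalised counts of 5504, 5956, 3845, 3613 and 3855 in the controls of lines 1 to 5 and 8358, 8388, 7701, 6181 and 7271 with IL-1β. The lowest stimulated library was above the highest control, and the log2 fold change was 0.76 (SE 0.16, n = 5 lines, adjusted p = 0.0058 by limma). PSMA5 (0.67), PSMA3 (0.57), PSMA7 (0.56) and PSMA4 (0.50) also rose. PSMA2 had the smallest value, 0.44, with an adjusted p of 0.052 by limma.

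Among the beta subunits without proteolytic sites, PSMB4 and PSMB3 (log2 fold change 0.58, adjusted p = 0.021 by limma) rose. PSMB4, whose product takes part in dimerisation of the half-proteasomes, had normalised counts of 7739, 8687, 6526, 6615 and 6328 in the controls of lines 1 to 5. With IL-1β these were 14324, 14644, 14441, 10031 and 10492, so the groups did not overlap, and the log2 fold change was 0.82 (SE 0.14, n = 5 lines, adjusted p = 0.0023 by limma). PSMB1 had the smallest value of this ring, 0.43 (adjusted p = 0.062 by limma).

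Of the 3 constitutive catalytic subunits, PSMB5, which carries the chymotrypsin-like activity, rose. Its normalised counts were 6269, 7875, 5629, 5488 and 5319 in the controls of lines 1 to 5 and 10150, 10431, 9082, 6419 and 7559 with IL-1β, and the log2 fold change was 0.50 (SE 0.16, adjusted p = 0.035 by limma). The groups overlapped, since the control of line 2 exceeded the stimulated libraries of lines 4 and 5. PSMB6, the caspase-like subunit, went from 4221, 4840, 4105, 3805 and 3847 to 5550, 5752, 5203, 4087 and 4299. PSMB7, the trypsin-like subunit, went from 5557, 6523, 4798, 4929 and 4969 to 8297, 8778, 6379, 5422 and 5783. Both were higher in every line, with log2 fold changes of 0.25 and 0.35 and adjusted p-values of 0.13 and 0.11 by limma, which were 0.021 and 0.012 with the line as a block.

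In the 19S particle, 2 of 6 ATPases and 7 of 11 PSMD subunits rose, and all 17 were higher in every line of batch 1. These subunits are read from the same libraries, and the share of all genes higher in every line was not taken. PSMD3, a scaffold subunit of the lid, gave the largest value of all constitutive members. Its normalised counts were 5602, 7226, 4673, 5166 and 5163 in the controls of lines 1 to 5 and 11922, 11125, 9732, 8437 and 8189 with IL-1β, and the log2 fold change was 0.83 (SE 0.14, adjusted p = 0.0022 by limma). PSMD4, a ubiquitin receptor, rose by 0.48 and PSMC5, an ATPase, by 0.47 (adjusted p = 0.0059 and 0.0066 by limma). The other subunits of the particle that rose were the ATPase PSMC4 (0.43) and PSMD1 (0.37), PSMD2 (0.42), PSMD6 (0.37), PSMD7 (0.39) and PSMD11 (0.42), with adjusted p-values between 0.021 and 0.044 by limma. The smallest values were 0.25 for the ATPase PSMC3 and 0.14 for the lid subunit PSMD13 (adjusted p = 0.18 and 0.17 by limma). PSMD13 was the only constitutive subunit of the core and the 19S particle that did not pass with the line as a block (adjusted p = 0.084).

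The 3 chaperones that assemble the base of the 19S particle, and are not part of the finished complex, lay on the other side. PSMD10 (gankyrin) had normalised counts of 1710, 1841, 1687, 1830 and 1666 in the controls of lines 1 to 5 and 1256, 1449, 1465, 1328 and 1393 with IL-1β. It fell in batch 1 without overlap of the groups, with a log2 fold change of -0.34 (SE 0.08, lower in 5 of 5 lines, adjusted p = 0.0081 by limma). PSMD5 had a log2 fold change of -0.35 with an adjusted p of 0.097 by limma, which was 0.048 with the line as a block. PSMD9 had a value of -0.12 (adjusted p = 0.41 by limma). The activators PSME3 and PSME4 had log2 fold changes of 0.25 and 0.30 (adjusted p = 0.090 and 0.066 by limma), which passed with the line as a block (0.031 and 0.026). PSME3 had normalised counts of 4837, 4947, 3689, 3749 and 4126 in the controls of lines 1 to 5 and 5307, 5091, 4671, 4788 and 5373 with IL-1β. PSME4 had 4765, 5078, 4134, 4517 and 3649 in the controls and 6400, 4965, 5317, 5709 and 4843 with IL-1β, and was lower with IL-1β only in line 2.

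Not all of these calls stood on the same footing. When each line was left out in turn, the number of the 43 members that rose was 5 without line 1, 21 without line 2, 6 without line 3, 7 without line 4 and 5 without line 5. Of all genes, 1429 of 14789 rose without line 1, 1497 of 14731 without line 2 and 1528 of 14766 without line 3. Without line 4, 1464 of 14731 rose, and without line 5, 1119 of 14743. Except without line 2, the members' share of rises lay closer to this background than with all lines. PSMA6, PSMB4, PSMC5, PSMD3 and PSMD4 rose, and PSMD10 fell, in each of these 5 fits. They were also 6 of the 7 members whose control and stimulated groups did not overlap, the other being PSMD6, and 19.5% of all genes tested did not overlap. The other 12 called members were higher in all 5 lines, so their direction could not change in these fits.

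The inducible subunits gave a different picture. All 5 genes of the immunoproteasome and PA28 alpha-beta had positive log2 fold changes in batch 1, and their median, 0.89, exceeded that of the constitutive members, but none of the 5 passed the test. The lines differed widely before any stimulation. PSMB8 had normalised counts of 2445, 769, 222, 64.1 and 52.9 in the controls of lines 1 to 5, a 45.4-fold range. PSMB9 had 1199, 480, 39.4, 19.6 and 19.7, a 58.2-fold range. The standard deviation of log2 counts between these controls was 2.35 for PSMB8 and 2.74 for PSMB9, larger than for 98.98% and 99.36% of the genes tested. Among the constitutive members the median was 0.24, and the median of all genes was 0.28. The constitutive members thus varied between lines about as much as a typical gene, and the inducible pair of genes far more.

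**Figure D2:**
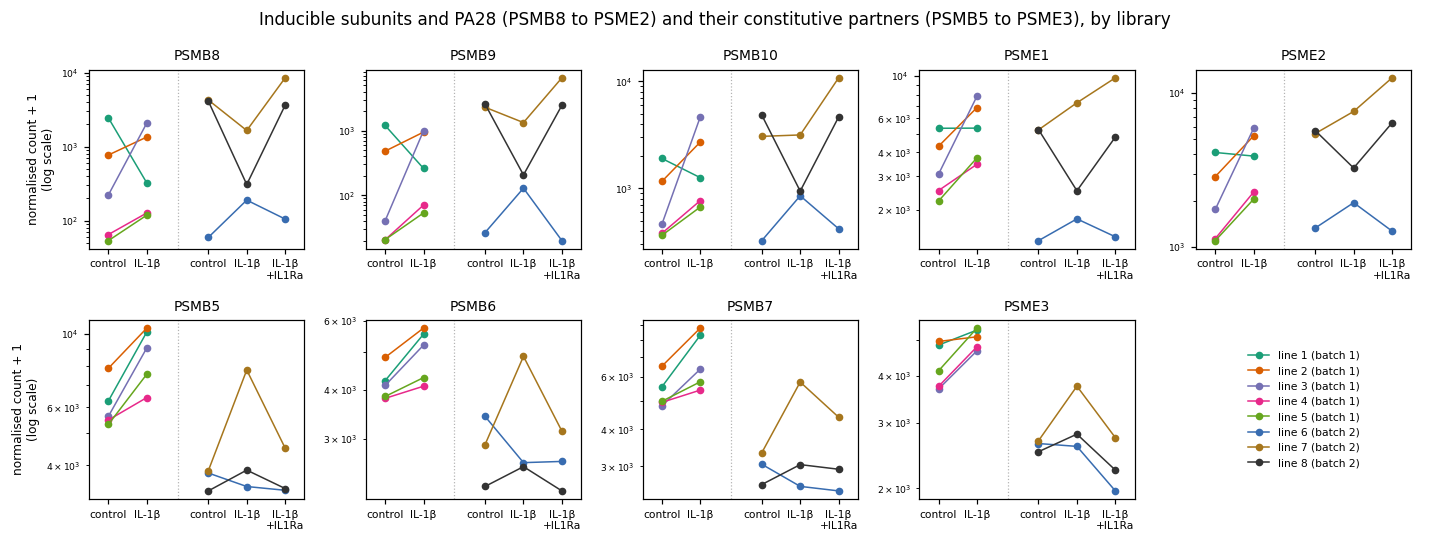
Normalised counts plus 1 (log scale, a separate scale for each gene) in every library for the 5 inducible genes in the top row and 4 constitutive partners in the bottom row, with the libraries of a line joined and a dotted line between batches. In batch 1 the lines for PSMB5, PSMB6 and PSMB7 all slope upward, whereas PSMB8 and PSMB9 fall in line 1 and climb in lines 2 to 5; in batch 2 they climb in line 6 and drop in lines 7 and 8, then return with IL1Ra.

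With IL-1β, PSMB8 had normalised counts of 322, 1347, 2083, 126 and 118 in lines 1 to 5. The log2 change was -2.92 in line 1 and 0.81, 3.23, 0.97 and 1.14 in lines 2 to 5. The log2 fold change over the 5 lines was 0.65 with a standard error of 1.18 (adjusted p = 0.72 by limma). PSMB9 had 260, 946, 995, 69.9 and 52.6 with IL-1β, a log2 change of -2.20 in line 1 and of 0.98, 1.78 and 1.37 in lines 2, 4 and 5. In line 3 the change was 4.62, the largest of any member. Over the lines this gave 1.31 (SE 1.32, adjusted p = 0.50 by limma).

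PSMB10, the inducible counterpart of PSMB7, was present at higher counts and varied less. Its normalised counts were 1906, 1160, 460, 379 and 363 in the controls of lines 1 to 5 and 1260, 2711, 4655, 768 and 669 with IL-1β. The order of the lines among the controls was the same as for PSMB8, and line 1 was again the only line in which IL-1β went with a lower count. The log2 fold change was 1.17 (SE 0.63, adjusted p = 0.19 by limma, 0.096 with the line as a block).

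The PA28 genes followed in a narrower range. PSME1 had normalised counts of 5333, 4295, 3072, 2524 and 2224 in the controls of lines 1 to 5 and 5342, 6840, 7846, 3462 and 3742 with IL-1β. PSME2 had 4108, 2863, 1752, 1131 and 1097 in the controls and 3892, 5274, 5916, 2273 and 2044 with IL-1β. Both were nearly level in line 1 and highest with IL-1β in line 3. Their log2 fold changes of 0.65 and 0.89 did not pass (adjusted p = 0.13 and 0.15 by limma) but did with the line as a block (0.025 and 0.021), so that PSME1 and PSME2 were the only inducible genes called in either fit of batch 1.

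These 5 genes kept nearly the same order of lines. Among the batch 1 controls, PSMB8, PSMB10, PSME1 and PSME2 all ran from line 1 through 2, 3 and 4 to line 5, and PSMB9 differed only in lines 4 and 5, which had 19.6 and 19.7. With IL-1β the order of PSMB8, PSMB9, PSMB10 and PSME2 was line 3, 2, 1, 4 and 5, and PSME1 differed only in its last places. The 5 genes are read from the same libraries, so this is a description and no replication. Without line 1 their median log2 fold change was 1.54, and without line 3 it was 0.48.

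**Figure D3:**
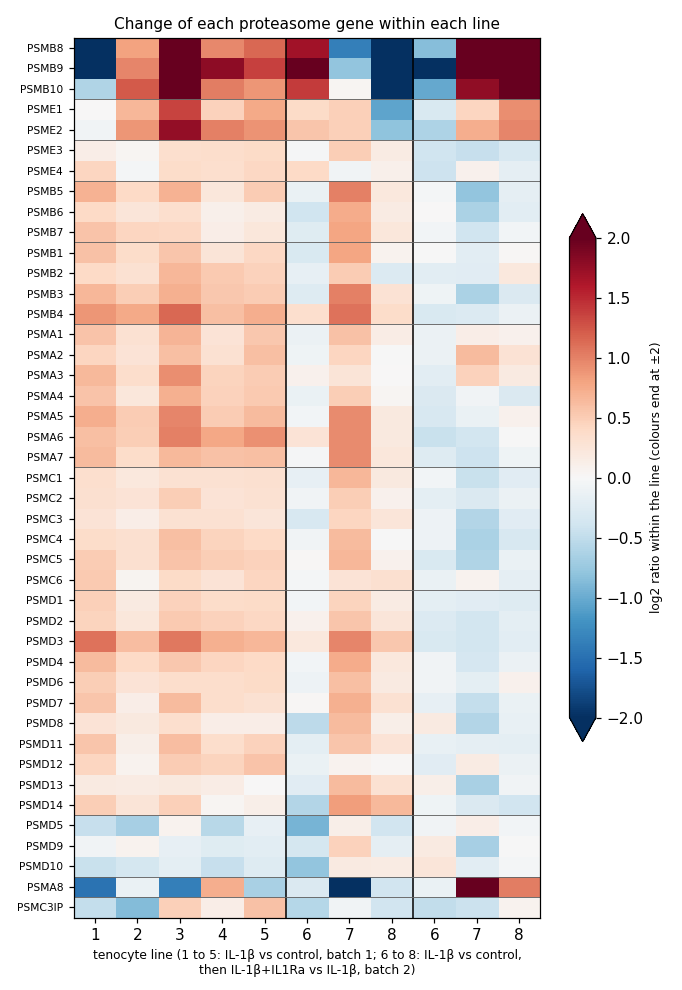
Log2 ratio of each of the 43 tested members within each line, with colours ending at 2 in either direction. Columns show IL-1β against control for lines 1 to 5 (batch 1) and 6 to 8 (batch 2), then IL-1β plus IL1Ra against IL-1β for lines 6 to 8. The rows PSMB8 to PSMB10 change sign between lines, blue in line 1 and red in line 3, while in batch 1 the rows PSMB5 to PSMD14 are pale red to white in each column and the chaperone rows mostly pale blue.

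To compare each inducible gene with the subunit it replaces, or with PSME3 for PA28 alpha-beta, the log2 ratio of the pair was taken within each library. The PSMB8 to PSMB5 ratio was -1.36, -3.35, -4.66, -6.40 and -6.63 in the controls of lines 1 to 5 and -4.97, -2.95, -2.12, -5.66 and -5.99 with IL-1β. The change averaged 0.14 (SD 2.26 between lines) and was not distinguishable from 0 (exact two-sided permutation test, n = 5 against 5, adjusted p = 0.90 over the 5 ratios). The mean changes of the other ratios were 1.06 (SD 2.46 between lines) for PSMB9 to PSMB6, 0.82 (SD 1.45) for PSMB10 to PSMB7, 0.40 (SD 0.45) for PSME1 to PSME3 and 0.64 (SD 0.59) for PSME2 to PSME3. Each was higher with IL-1β in 4 of 5 lines, line 1 being the exception, and none passed (exact permutation tests, adjusted p between 0.40 and 0.55, where the design allowed an unadjusted p as low as 0.0079). In exact two-sided sign-flip tests, which pair the libraries of a line, the adjusted p-values of the 5 ratios were between 0.47 and 0.88, where 5 lines allowed an unadjusted p as low as 0.0625.

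**Figure D4:**
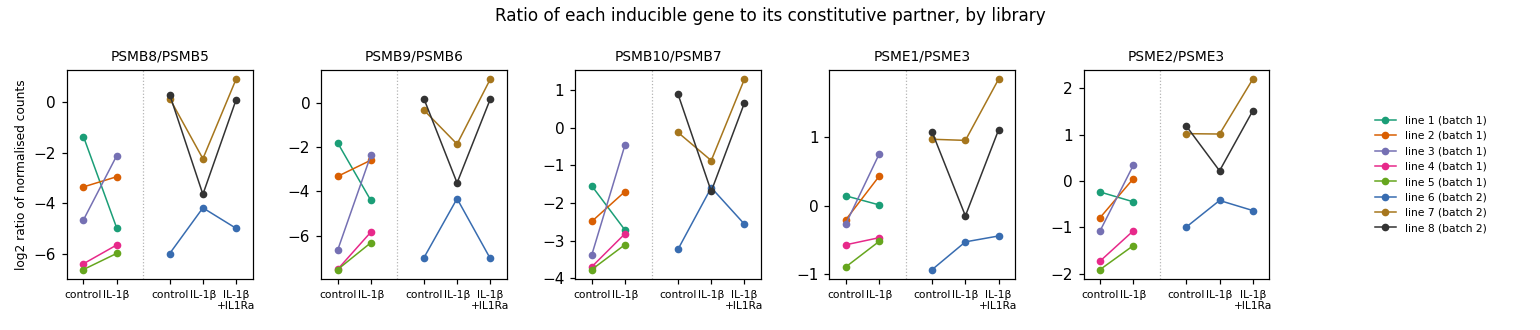
Log2 ratio of normalised counts of each inducible gene to its constitutive partner in every library, with the libraries of a line joined and a dotted line between batches. In the first panel the ratio of PSMB8 to PSMB5 spans -1.36 to -6.63 among the batch 1 controls, and in batch 2 the controls of lines 7 and 8 stand near 0 with line 6 at -5.99.

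In batch 2, no member passed the test in any of the 3 comparisons, by limma with or without the line as a block. Between IL-1β and control, 0.269% of genes rose and 0.0718% fell (3.16% and 2.94% with the block), so a count of 0 of 43 lay close to the background. At an unadjusted p below 0.05 by limma there was 1 member without the block, PSMD3, and 3 with it. Of the 16705 genes tested, 1907 were below 0.05 without the block and 3708 with it, so the members' shares lay below the background. PSMD3, the constitutive member with the largest log2 fold change in batch 1, had normalised counts of 3584, 3585 and 3412 in the controls of lines 6 to 8 and 4141, 7050 and 4980 with IL-1β. It was the only member whose groups did not overlap in this comparison, where 16.4% of genes did not, and its log2 fold change was 0.58 (SE 0.25, higher in 3 of 3 lines, adjusted p = 0.43 by limma). PSMB4, next among the constitutive members of batch 1, went from 3104, 4338 and 4318 to 3914, 9164 and 5596 (log2 fold change 0.60, SE 0.39, adjusted p = 0.66 by limma).

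The constitutive members had a median log2 fold change of 0.21 in batch 2, with a positive value for 32 of 36. The lines did not share it: the median within line 6 was -0.11, in line 7 it was 0.62 and in line 8 it was 0.17. PSMB5 had normalised counts of 3789, 3849 and 3344 in the controls of lines 6 to 8 and 3448, 7781 and 3866 with IL-1β, with PSMB6 going from 3423, 2899 and 2267 to 2608, 4870 and 2547 and PSMB7 from 3049, 3332 and 2604 to 2567, 5773 and 3040. All 3 were lower with IL-1β in line 6 and higher in lines 7 and 8. The constitutive median lay 0.21 above that of all genes, which was -0.0084. With libraries rescaled to equal sums, the median of all genes dropped by 0.18 to -0.19 and the constitutive median was 0.022 with 21 of 36 positive, again 0.21 above. The gap was 0.084 under quantile normalisation and 0.023 without line 7. PSMD10 was lower with IL-1β in line 6 and higher in lines 7 and 8 (1531, 928 and 664 in the controls against 886, 1049 and 743), with a log2 fold change of -0.15 (SE 0.31, adjusted p = 0.93 by limma).

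The inducible genes again separated the lines in the unstimulated controls, and more widely. PSMB8 had normalised counts of 58.5, 4255 and 4114 in the controls of lines 6, 7 and 8, PSMB9 had 25.6, 2289 and 2563, and PSMB10 had 324, 3064 and 4850. PSME1 had 1382, 5234 and 5250, and PSME2 had 1326, 5454 and 5704. Line 6 was the lowest for all 5 genes, and lines 7 and 8 stood well above it. The controls of the constitutive partners differed far less, with PSMB5 between 3344 and 3849.

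PSMB8 and PSMB9 were higher with IL-1β in line 6 and lower in lines 7 and 8, with 1 culture per line and condition. PSMB8 was 189, 1650 and 308 with IL-1β, a log2 change of 1.67 in line 6, -1.37 in line 7 and -3.74 in line 8. PSMB9 was 128, 1328 and 206, and its log2 change was 2.28 in line 6, -0.79 in line 7 and -3.63 in line 8. PSMB10 was 852, 3160 and 943, changing by 1.39, 0.04 and -2.36. The PA28 genes were higher in lines 6 and 7 and lower in line 8, with 1795, 7245 and 2516 for PSME1 and 1937, 7594 and 3257 for PSME2. The control levels of the 3 lines in which PSMB8 and PSMB9 were lower with IL-1β, line 1 of batch 1 and lines 7 and 8 of batch 2, were the highest of their batch. This was seen after the values were known and was not tested, and the change shares the control library with the level it is set against.

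Over the 3 lines, the log2 fold changes with IL-1β were -1.14 for PSMB8 (SE 2.07), -0.71 for PSMB9 (SE 2.45), -0.31 for PSMB10 (SE 1.36), -0.07 for PSME1 (SE 0.84) and 0.07 for PSME2 (SE 0.93), with adjusted p-values between 0.92 and 0.99 by limma. None of these signs was stable. Without line 8, PSMB8, PSMB9, PSMB10 and PSME1 had values of 0.15, 0.75, 0.72 and 0.42, and PSME2 was negative without line 6 or line 7 and under equal-sum scaling (-0.11). No member of the group differed by more than its spread between lines. The exchange ratios of batch 2 could not reach an exact permutation p below 0.10 with 3 lines against 3, and their p-values were between 0.40 and 0.80 in all 3 comparisons.

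IL1Ra given with IL-1β was compared with control and with IL-1β alone, which share libraries and are not independent of each other or of the first comparison. PSMB8 had normalised counts of 104, 8483 and 3631 in lines 6 to 8, PSMB9 had 19.0, 6521 and 2456, and PSMB10 had 419, 10805 and 4650. PSME1 had 1447, 9778 and 4800, and PSME2 had 1266, 12564 and 6402. In line 6 these were below the IL-1β library for all 5 genes, and in lines 7 and 8 above it. For PSMB8 the log2 change against IL-1β was -0.85, 2.36 and 3.56 in lines 6 to 8. Against control it was 0.82, 1.00 and -0.18, so that line 8 lay close to its control with IL1Ra and line 7 above it.

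The fold changes of the inducible genes with IL1Ra against IL-1β alone were 1.69 for PSMB8 (SE 2.07), 1.06 for PSMB9 (SE 2.45), 1.02 for PSMB10 (SE 1.36), 0.35 for PSME1 (SE 0.84) and 0.36 for PSME2 (SE 0.93) on the log2 scale, none past the test (adjusted p = 1.00 for each by limma). Their median was 1.02, and it was 2.04 without line 6, 0.44 without line 7 and 0.06 without line 8. Without line 6, 3 of the 5 had an unadjusted p below 0.05 by limma, as did 1139 of 16707 genes. That fit left out the line in which all 5 were lower with IL1Ra, and the 5 genes are read from the same libraries. The constitutive members had a median of -0.20, with 32 of 36 negative and 20 lower in all 3 lines, including 5 of 6 ATPases and 7 of 11 PSMD subunits. PSMB5, for example, was 3358, 4508 and 3399 with IL1Ra, and its log2 fold change against IL-1β was -0.34 (SE 0.30). The share of all genes lower in all 3 lines was not taken, and the members are read from the same libraries. Under equal-sum scaling, which raised the median of all genes by 0.10 to 0.11, the constitutive median was -0.10 with 10 of 36 positive. Without the line as a block, no gene among all those tested passed in either direction in this comparison (0.0% and 0.0%). In that fit 0 members had an unadjusted p below 0.05 by limma, against 464 of 16705 genes. With the block 1 gene passed, and without line 6, 10 of 16707 did. With DESeq2, the paper reported differentially expressed genes between these conditions.

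Against control, the constitutive members with IL-1β plus IL1Ra had a median log2 fold change of 0.019, and the inducible genes 0.43. By limma, 0 of 43 members passed and 0 had an unadjusted p below 0.05, against 948 of 16705 genes at that unadjusted threshold. The inducible median was 0.69 without line 6, 0.05 without line 7 and 0.57 without line 8, and without line 7 the constitutive members had a median of -0.12 with 9 of 36 positive. Of all genes, 0.012% rose and 0.0% fell. PSMC3IP, the namesake, was the only member whose groups did not overlap here (296, 317 and 263 in the controls against 141, 222 and 213), where 11.8% of genes did not. Between IL1Ra and IL-1β alone 0 members did not overlap, against 6.47% of genes.

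Genes of related pathways were taken from lists of known function. Of 10 further assembly factors and particle subunits found in the table, 0 passed in batch 1 by limma, with 2 at an unadjusted p below 0.05 and a median log2 fold change of -0.06. Of all genes tested in batch 1, 5814 of 14719 had an unadjusted p below 0.05 by limma. POMP, the chaperone that completes the 20S core, had 0.50 (adjusted p = 0.079 by limma) and rose with the line as a block (0.0059). Of the 5 ubiquitin and E1 genes found, 0 passed and 1 had an unadjusted p below 0.05, and their median was -0.14. RPS27A, which encodes ubiquitin fused to a ribosomal protein, fell only with the line as a block (log2 fold change -0.31, adjusted p = 0.040).

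Of 6 tested genes that control transcription of proteasome genes or the response to impaired proteolysis, 3 rose in batch 1, none fell, and the median was 0.45. Of all genes tested in batch 1, 13.1% rose and 14.6% fell. NFE2L1 encodes the transcription factor that induces proteasome genes when proteasome activity is limiting. Its normalised counts were 14432, 14350, 15787, 17722 and 17782 in the controls of lines 1 to 5 and 22834, 18756, 21912, 20134 and 20131 with IL-1β (log2 fold change 0.38, SE 0.10, adjusted p = 0.017 by limma). The groups did not overlap, as was the case for 19.5% of all genes tested in batch 1. NFE2L2, which encodes the oxidative stress factor NRF2, rose by 0.87 (adjusted p = 0.00022 by limma), and SQSTM1, encoding the autophagy receptor p62, by 1.57 (0.00019). In batch 2, 0 of the 6 passed and 3 had an unadjusted p below 0.05 by limma, as did 1907 of 16705 genes. The values were 0.60 for NFE2L1, 0.92 for NFE2L2 and 1.52 for SQSTM1. The last pair passed with the line as a block (0.039 and 0.020).

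Of the MHC class I genes that work downstream of the immunoproteasome, TAP1 and B2M are given by library, chosen after their values were seen. TAP1 had normalised counts of 5484, 2932, 869, 573 and 536 in the controls of lines 1 to 5 and 2507, 5681, 6607, 1191 and 1311 with IL-1β, so the controls ran in the order of PSMB8 and the stimulated libraries were again led by line 3. In batch 2, TAP1 was 482, 8418 and 12822 in the controls of lines 6 to 8, 899, 4173 and 1417 with IL-1β and 398, 27161 and 13664 with IL-1β plus IL1Ra. B2M, the light chain of MHC class I, was 91218, 27930, 16197, 7001 and 8071 in the batch 1 controls and 34364, 47528, 103190, 12843 and 17113 with IL-1β. None of the 12 genes of the list passed in batch 1 by limma, where 2 had an unadjusted p below 0.05 and the median log2 fold change was 0.38. Of all genes tested in batch 1, 5814 of 14719 were below that unadjusted threshold. The list did not move as 1 group: TAP1, TAP2, TAPBPL and B2M were higher with IL-1β in 4 of 5 lines, CANX and PDIA3 in 5, TAPBP and NLRC5 in 2 and LNPEP in 0. With the line as a block CANX and PDIA3 rose and LNPEP fell. None passed in batch 2 either, with 0 below an unadjusted 0.05 between IL-1β and control, against 1907 of 16705 genes.

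**Figure D5:**
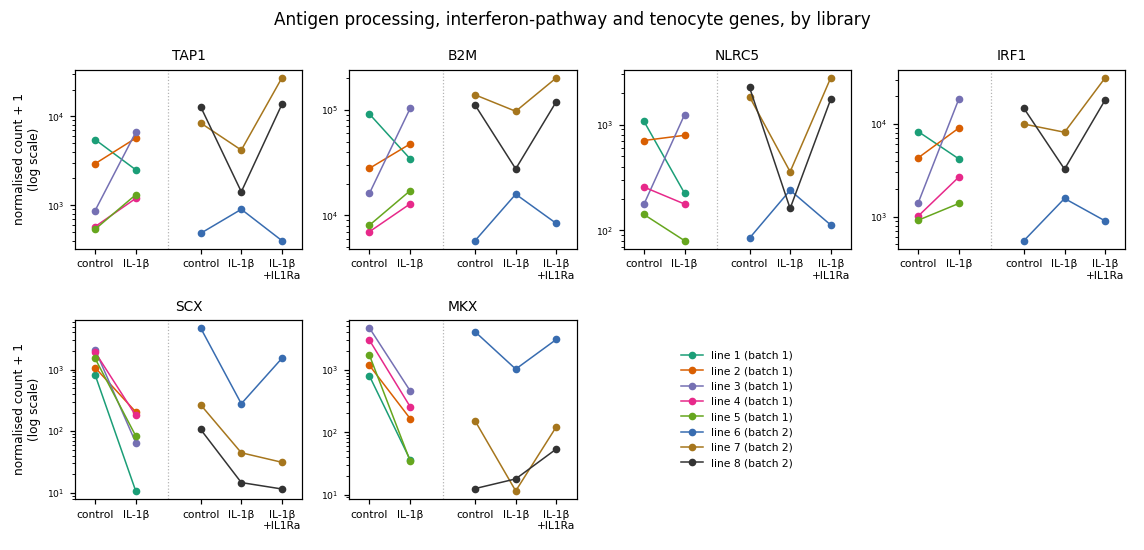
Normalised counts plus 1 (log scale, a separate scale for each gene) in every library for genes of antigen processing (TAP1, B2M), their regulators (NLRC5, IRF1) and tenocyte transcription factors (SCX, MKX), with the libraries of a line joined and a dotted line between batches. TAP1, B2M and IRF1 cross in batch 1 as PSMB8 does, with line 1 falling and line 3 climbing, and SCX falls with IL-1β in all 8 lines.

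In batch 1, receptor chains of the interferon pathway were higher with IL-1β in every line, whereas the downstream factor IRF1 was higher in 4 of 5. Of 14 tested regulators 5 rose and none fell in batch 1, against 13.1% and 14.6% of all genes, and the median was 0.53. Those that rose were the receptor chains IFNGR2 (log2 fold change 1.75), IFNAR2 (1.65) and IFNGR1 (0.76), the factor IRF2 (0.87) and the kinase JAK2 (0.58). Their adjusted p-values were between 0.00042 and 0.0069 by limma. With the line as a block IFNAR1 also rose and SOCS1, an inhibitor of the pathway, fell. In batch 2, IFNAR2 was 1164, 1170 and 1274 in the controls of lines 6 to 8 and 4075, 2627 and 3467 with IL-1β, and was the only 1 of 15 to pass (1.47, adjusted p = 0.029 by limma), with IFNGR2 passing too with the line as a block (2.04, adjusted p = 0.0081). The downstream factor IRF1 had a value of 1.16 in batch 1 and did not pass (adjusted p = 0.31 by limma).

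IRF1, an interferon-inducible factor that activates PSMB8, PSMB9 and TAP1, was 8232, 4305, 1410, 1013 and 912 in the controls of lines 1 to 5 and 4177, 9022, 18627, 2669 and 1383 with IL-1β. In batch 2 IRF1 was 548, 9938 and 14697 in the controls, 1565, 8110 and 3242 with IL-1β and 895, 31344 and 18094 with IL-1β plus IL1Ra. IFNG, the gene for interferon gamma, did not exceed 7.78 in any batch 1 library. In line 7 it was 42.8 in the control, 13.6 with IL-1β and 607 with IL-1β plus IL1Ra. In line 8 it was 25.7, 10.8 and 53.9, and in line 6 it was at 0 in all 3 libraries. IFNB1 did not exceed 1.72 in any library.

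The lines with high inducible subunits also had low control levels of SCX and MKX, 2 of the 9 tenocyte and fibroblast markers found. This pair was shown after its values were seen, and the other markers are not given by line. In the batch 1 controls SCX, a tendon transcription factor, was 822, 1075, 2110, 1919 and 1516 in lines 1 to 5 and MKX, another, was 792, 1171, 4654, 2969 and 1702, so both were lowest in line 1 and next lowest in line 2. In the batch 2 controls MKX was 4059, 151 and 11.5 in lines 6 to 8. Both fell with IL-1β in batch 1, with log2 fold changes of -4.25 and -3.95 (adjusted p = 0.0019 and 0.0042 by limma), and were lower in all 5 lines. Of the 8 tenocyte and fibroblast markers tested in batch 1, 5 fell and 1 rose, against 14.6% and 13.1% of all genes tested. Their median log2 fold change was -1.58. The others that fell were COL1A1 (-1.83), COL1A2 (-1.33) and THBS4 (-3.16), and LUM, encoding the matrix proteoglycan lumican, rose (0.91), with adjusted p-values between 0.0059 and 0.040 by limma. With the line as a block DCN (0.73) also rose and PDGFRB (-0.56) also fell (adjusted p = 0.0072 and 0.011 by limma).

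Of the 12 leukocyte markers, 2 were tested in batch 1 and 1 rose, where 13.1% of all genes rose. CD68, a lysosomal protein of macrophages that other cells also express, had normalised counts of 173, 124, 58.3, 56.4 and 86.0 in the controls of lines 1 to 5 and 1359, 565, 306, 296 and 846 with IL-1β. The groups did not overlap, as for 19.5% of all genes tested, and the log2 fold change was 2.64 (adjusted p = 0.0026 by limma). In batch 2 its value was 1.89, higher in 3 of 3 lines (adjusted p = 0.59 by limma, 0.037 with the line as a block). The sum of all 12 markers was between 85.7 and 439 in the batch 1 controls (median 206) and between 361 and 1643 with IL-1β (median 746). The summed leukocyte markers without CD68 and ITGAX were between 3.72 and 42.7 in the batch 1 controls and between 6.24 and 58.3 with IL-1β, and in batch 2 between 11.3 and 34.8 over all 9 libraries. The part that these markers have in the levels of the inducible subunits was not tested.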

How the data were processed

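RNA-seq of 19 libraries from 8 tenocyte lines was used, all with a group from the labels. The authors mapped paired reads with Salmon, built gene counts and deposited signal values per gene, which are counts divided by DESeq2 size factors (DESeq2 1.36 in R 4.2.1), in 1 table per batch. Whole reads could not be recovered from these values, so no count model was run, and read depth is known only through the sums of the normalised counts. The counting of overlapping genes was not given in the sources used here, and in the RefSeq table PSMB9 overlaps TAP1.

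A gene was tested where its value reached 10 in 5 or more (batch 1) or 3 or more (batch 2) libraries, with limma 3.58.1 (R 4.3.3, trended empirical Bayes) on log2(value + 1), a scale that understates changes of low genes. All groups of a batch shared the fit, and p-values were adjusted by Benjamini-Hochberg over all genes tested. The pipeline was tested on simulated data. Exchange ratios were compared by exact permutation (scipy 1.17.1). The main fit had no line term, and the line as a block was an alternative. The titles give each library's line, so numbers pair libraries of a line. Deviations from group means correlated between 0.351 and 0.794 within lines, and between -0.625 and 0.288 between lines. Other alternatives were pseudocounts of 10 and 0.1, no filter, equal sums, quantile normalisation, no trend, the 2 compared groups alone and leaving out each line.

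The members and lists were chosen with earlier results of these data known. Named with all values were PSMB8, PSMB9, PSMB10, PSME1, PSME2, PSMB5, PSMB6, PSMB7, PSME3 and PSME4. The members with the highest and lowest batch 1 fold change in each role, and the members and list genes that passed without the line block, were named with at least their fold change. TAP1, B2M, IRF1, IFNG, SCX and MKX were shown after their values were seen. All 44 member symbols were found in the RefSeq table. PSMG2, ADRM1, UBB and COL3A1 were not analysed here, and 1 gene of the interferon list is not reported here. No sequences were used.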

Additional observations from a re-analysis of the deposited data

Results flagged for a closer look

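Over 32 sets of 5 values in batch 1 (the log2 level of 10 named members in each group, and the change within each line of these members and of the median of either set), 1 held a value far from the rest by Dixon's ratio, and chance gives about 1 in 20. The log2 change of PSME4, the gene of the activator PA200, was -0.033 in line 2, against 0.34 to 0.43 in the other 4 lines of batch 1. The gap was 0.809 of the whole range, above the critical value of 0.71 for 5 values. No member had all lines of batch 1 on one side of 0 and all lines of batch 2 on the other.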

How the results depend on the processing

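The count of members that rose in batch 1 was 17. It was 34 with the tenocyte line as a replicate block (and 2 fell, against 1), 11 without the trend, and 5 to 21 when single lines were left out. Of all 14719 genes tested, 1924 rose in the main fit, 3073 with the block and 1795 without the trend. When single lines were left out, between 1119 of 14743 and 1528 of 14766 genes rose. No filter, both pseudocounts, equal sums and quantile normalisation left the count of members within 1.5 times. The block changed no count of called members in batch 2, where no alternative gave a member past the threshold. Both medians moved by less than their spread between lines under each alternative. Signs reversed only in values that did not pass, mostly when 1 line was left out. Between IL-1β and control in batch 2, leaving out each line gave -2.55 to 0.15 for PSMB8, -2.21 to 0.75 for PSMB9, -1.16 to 0.72 for PSMB10, -0.34 to 0.42 for PSME1 and -0.17 to 0.51 for PSME2, with PSME2 at -0.11 under equal sums and -0.037 under quantile normalisation. The ratios ran from -2.67 to 0.57 (PSMB9 to PSMB6), -1.67 to 0.45 (PSMB10 to PSMB7), -0.62 to 0.19 (PSME1 to PSME3) and -0.49 to 0.28 (PSME2 to PSME3). With IL1Ra against control, PSMB9 ran from -0.24 to 0.72, PSME1 from -0.031 to 0.48 and PSMB9 to PSMB6 from -0.027 to 0.69, and against IL-1β, PSMB9 ran from -0.20 to 2.93. The batch 1 ratio of PSMB8 to PSMB5 ran from -0.46 to 1.08. The cause was not tested. Depth limits PSMA8 and PSMB11, and 1 culture per line and condition leaves no spread within a line.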
